A study of Mus musculus with 4 samples.

Results

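The S100 proteins are small calcium-binding proteins of the EF-hand family, and 8 of their genes, S100a1, S100a4, S100a6, S100a8, S100a9, S100a10, S100a11 and S100a13, were followed in leukemic and mature mouse bone marrow. The members were every probe set that the platform annotation assigns to one of these symbols. There were 10 such probe sets, for 7 of the 8 genes, among 45101 on the array, and all 10 passed the filter on low signals, so that 7 of the 12378 tested genes were members. S100a11 is named by 1 probe set alone, which also names its pseudogene S100a11-ps and Gm12854, so its values are given as those of a shared probe set.

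The series set marrow cells of mice with MN1 leukemia against myeloid marrow cells of healthy mice, called mature here. There were 2 arrays a group, and all mice were of strain C57BL/6J. For the leukemia, marrow taken 4 days after 150 mg/kg 5-fluorouracil was cultured for 48 hours with IL-6, IL-3 and stem cell factor. It then received MN1, a transcriptional coregulator found at high levels in some human myeloid leukemias, from a retrovirus. Cells sorted for GFP were transplanted into syngeneic recipients irradiated with 750 cGy, together with a protective dose of normal marrow. The labels do not say that the leukemic marrow was sorted again at harvest, how many mice gave each array, or the age of the mice. The comparison group was marrow positive for Gr1 and CD11b (Mac1), surface antigens of granulocytes and monocytes, so this gate itself favours genes of those cells. Mature is only a short name for this gate. Its arrays also read Mpo, known from granulocyte precursors, at 23543 and 13433. The B and plasma cell marker Ighm read 14292 and 5515 there. By contrast, 9 of 10 tested stem and progenitor markers were higher in leukemic marrow. The arrays include no separate group of normal immature cells, so leukemia cannot be told apart from immaturity.

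In myeloid cells, S100A8 and S100A9 form calprotectin, an abundant cytosolic complex of neutrophils and monocytes that binds calcium and zinc and, once released, signals through receptors such as TLR4 and RAGE. Most other S100 proteins act inside the cell as dimers that expose a binding face when calcium rises. S100A10 is the exception, as it has lost calcium binding and forms a stable complex with annexin A2.

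All 8 genes lie on mouse chromosome 3, where the RefSeq gene table holds 15 S100 coding genes. A group of 12 runs from S100a1 to S100a9 with no other coding gene between them. S100a11 and S100a10 lie next to each other farther along, 54 coding genes beyond S100a7l2. Of the 8 members, 7 had a promoter window in RefSeq (assembly GRCm38.p6), from 250 bases before to 50 bases after the gene's start, and none was listed for S100a10. The windows of S100a4, S100a8 and S100a9 are shown because S100a4 had the largest fall of the members, S100a8 and S100a9 did not pass the test, and all 3 windows hold the letters TATAAA. They lie at chr3:90603520-90603819 on the plus strand, chr3:90668821-90669120 on the plus strand and chr3:90695672-90695971 on the minus strand. Capitals mark matches, on either strand, to TATAAA, known from core promoters, and to TTGCNNAA (C/EBP), GAGGAA (PU.1 and other ETS factors), TGANTCA (AP-1) and GGGCGG (SP1).
S100a4: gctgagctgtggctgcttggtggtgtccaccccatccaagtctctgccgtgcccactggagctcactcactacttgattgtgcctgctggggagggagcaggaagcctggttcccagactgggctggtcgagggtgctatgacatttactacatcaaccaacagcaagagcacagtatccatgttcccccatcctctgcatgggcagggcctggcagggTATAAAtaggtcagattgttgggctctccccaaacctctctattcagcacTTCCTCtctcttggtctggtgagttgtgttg
S100a8: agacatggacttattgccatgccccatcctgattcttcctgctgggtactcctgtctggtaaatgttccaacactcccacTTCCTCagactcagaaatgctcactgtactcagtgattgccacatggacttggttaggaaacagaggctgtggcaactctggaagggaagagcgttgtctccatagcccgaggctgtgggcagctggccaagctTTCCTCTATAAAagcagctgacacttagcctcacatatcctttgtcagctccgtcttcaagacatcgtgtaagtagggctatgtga
S100a9: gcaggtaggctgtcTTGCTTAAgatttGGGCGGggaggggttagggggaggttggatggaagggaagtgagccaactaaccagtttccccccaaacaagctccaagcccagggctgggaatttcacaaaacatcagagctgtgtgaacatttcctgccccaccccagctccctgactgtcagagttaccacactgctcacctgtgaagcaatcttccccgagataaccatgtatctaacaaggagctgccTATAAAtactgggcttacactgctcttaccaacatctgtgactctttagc

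Counted from the annotated start as 0, TATAAA began at -31 in S100a4, at -30 in S100a8 and at 0 in S100a9. In S100a8 it directly followed a reverse match to GAGGAA, which ended at -31. TATAAA was in the windows of 3 of the 7 members and in 13.6% of all 32851 windows of the same length. GAGGAA was in 3 of 7 (28.3% of all windows), GGGCGG in 2 of 7 (35.7%), and TTGCNNAA (10.8%) and TGANTCA (7.81%) in 1 of 7 each, in S100a9 and S100a11. The windows of S100a1, S100a6 and S100a13 held none of these letters. S100a1 and S100a13 are transcribed away from a common region on opposite strands, and their windows share 204 bases. A match describes letters and is not a measured binding site.

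Signals are linear MAS5 intensities. Each fold change is the leukemic minus the mature mean of log2(signal + 16), and genes were tested with limma across all 12378 genes with Benjamini-Hochberg adjustment. A call is an adjusted p under 0.05. Of the 7 tested S100 genes, 3 fell in leukemic marrow, S100a4, S100a6 and S100a13, and 0 rose. At an unadjusted p under 0.05 limma gave the same counts, 3 lower and 0 higher. Of all tested genes, 43.4% were called, 15.9% lower and 27.5% higher. The p-values measure the spread between these arrays alone. The median of the 7 was -0.21, against 0.28 over all tested genes. The split over all genes depended on the scaling. Of the called genes, 63.3% were higher as deposited and 57.2% after quantile normalization. The share was 49.4% with all arrays at the same median and 14.4% with the groups scaled to the hybridization controls. The median of all genes was 0.28, 0.09, -0.03 and -1.02 in that order. The S100 counts stayed at 3 lower and 0 higher except in the last setting, with 7 lower and 0 higher. The geometric mean of the hybridization controls was 11918 and 8950 in leukemic and 4044 and 4168 in mature arrays. Scaling to them therefore shifts all genes of a group together.

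**Figure D1:**
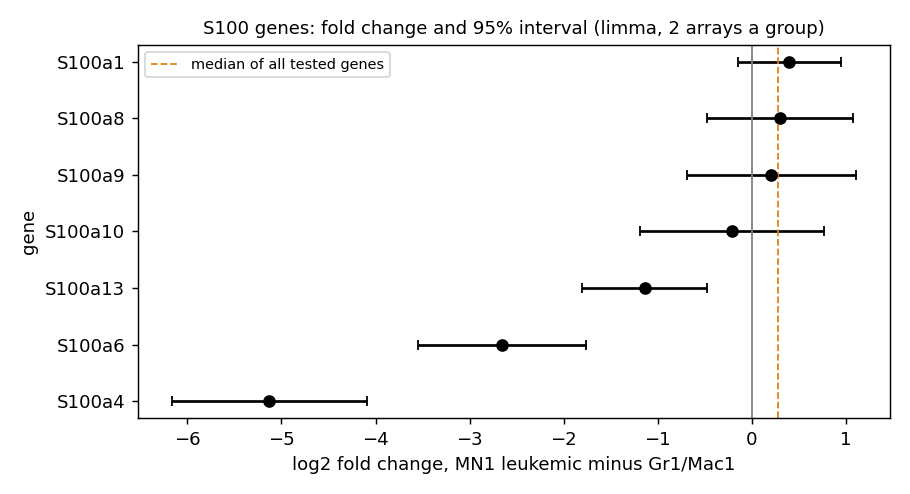
Log2 fold change (leukemic minus mature, horizontal axis) of the 7 tested S100 genes, with 95% intervals from limma and 2 arrays a group. The intervals of S100a4, S100a6 and S100a13 lie below 0, and those of S100a1, S100a8, S100a9 and S100a10 include 0; the dashed line is the median of all tested genes, 0.28.

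S100a4, also called metastasin, binds the heavy chain of non-muscle myosin and is known from motile cells such as macrophages. Its leukemic signals were 171 and 170.1, and its mature signals 10515 and 4015. Both leukemic values lay far below both mature values, and they differed little from each other. The mean signal was 170.4 ± 0.40 (SD, n = 2) against 7265 ± 4596 (SD, n = 2), 42.6 times higher in mature cells. The log2 fold change was -5.13 (SE 0.44, limma adjusted p = 0.000455), the ninth lowest of the 12378 genes (rank 9). The mature arrays differed by 1.39 on the log2 scale, replicate 1 above replicate 2. Without mature replicate 2 the fold change was -5.82, and without mature replicate 1 it was -4.43.

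S100a6 encodes calcyclin, which binds the ubiquitin ligase adaptor CACYBP and several annexins. Its probe set read 5339 and 2843 in leukemic and 31071 and 19474 in mature marrow, and the groups did not overlap. It fell by 2.65 on the log2 scale (SE 0.38, limma adjusted p = 0.00214), and 2.89% of all tested genes had a lower value. The mean signal was 6.18 times higher in mature cells. The gene is read by a single probe set that can match several transcripts (suffix _a_at), so it drops out when such probe sets are left out. With the groups scaled to the hybridization controls its value was -3.98.

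S100a13, which takes part in the release of FGF1 and interleukin 1 alpha without a signal peptide, read 986 and 1027 in leukemic and 2791 and 1792 in mature marrow. The groups did not overlap, and the leukemic arrays lay close together. S100a13 fell by 1.14 on the log2 scale (SE 0.28, limma adjusted p = 0.0156). The call was lost without leukemic replicate 1 (adjusted p = 0.081) and without leukemic replicate 2 (0.0795; range over alternatives 0.000548 to 0.081). Scaling to the hybridization controls moved the value to -2.45.

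**Figure D2:**
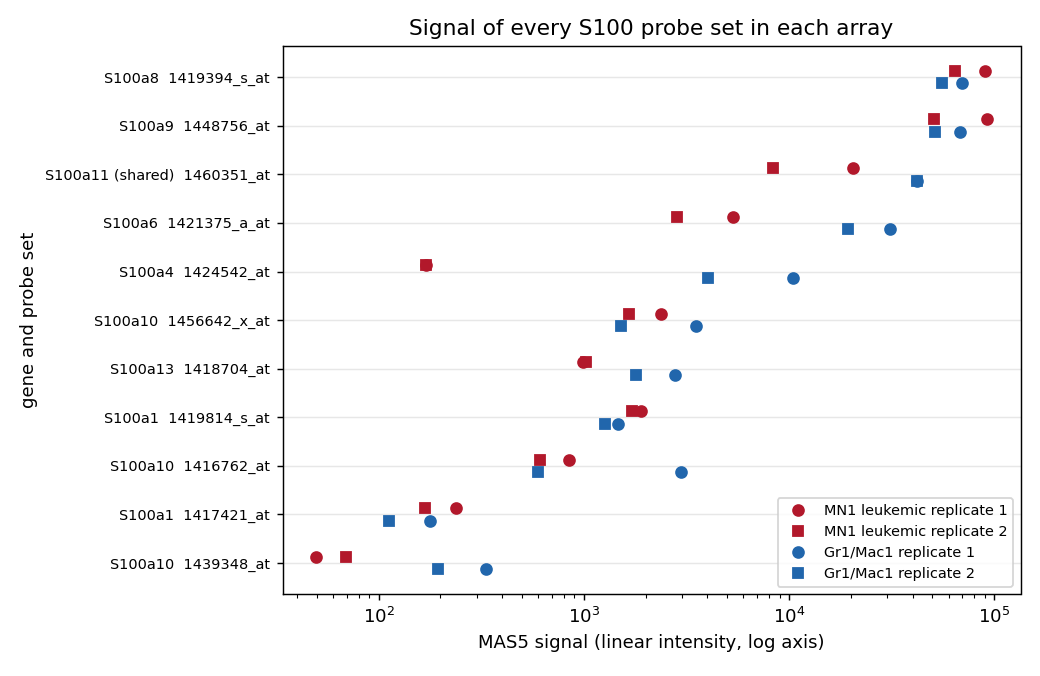
MAS5 signal (log axis) of all 10 S100 probe sets and the shared S100a11 probe set in each of the 4 arrays, with 1 row per probe set. The leukemic points lie left of the mature points for S100a4, S100a6, S100a13, the shared S100a11 probe set and the dimmest S100a10 probe set, while those of S100a8 and S100a9 overlap them; the leukemic points of S100a4 and the mature points of the shared probe set lie on top of each other.

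The calprotectin genes did not pass the test, and leukemic marrow gave signals as bright as mature cells. S100a8 is read by a single probe set that can match several transcripts (suffix _s_at). S100a8 read 90661 and 64532 in leukemic and 69575 and 55476 in mature marrow. The ranges overlapped, and the highest of the 4 values was leukemic replicate 1. Its log2 fold change was 0.30 (SE 0.33, 95% interval -0.47 to 1.07, limma adjusted p = 0.495). S100a9 read 92219 and 50892 in leukemic and 68312 and 51437 in mature marrow, so that the leukemic arrays gave both the highest and the lowest value. Its log2 fold change was 0.21 (SE 0.38, 95% interval -0.69 to 1.11, adjusted p = 0.694). Intervals of this width do not show that the groups are equal, and they do not reach the falls of S100a4 and S100a6.

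The direction of both depended on the scaling. S100a8 was at -0.23 after quantile normalization, -0.02 with all arrays at the same median and -1.03 with the groups scaled to the hybridization controls, where it passed as lower (limma adjusted p = 0.0315; range over alternatives 0.0315 to 0.975). S100a9 was at -0.26, -0.11 and -1.12 under the same settings, the last with an adjusted p of 0.0409 (range over alternatives 0.0409 to 0.994). Relative to the median of all genes, S100a8 lay at 0.02 as deposited, -0.32 after quantile normalization, 0.01 at the same median and -0.01 with the hybridization controls. S100a4 stayed between -5.40 and -5.28 by this measure.

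Both calprotectin probe sets sat at the top of the array's scale. The S100a8 signal was the maximum of each mature array and ranked 3 and 4 in the leukemic pair. The S100a9 signal ranked 2 in both mature arrays, with leukemic ranks of 2 and 26. A rank of brightness is not a rank of transcript number, and saturation at this brightness was not tested. S100a8 exceeded S100a9 within an array by -0.02 and 0.34 log2 units for leukemic marrow and by 0.03 and 0.11 for mature cells. The sign differed between the leukemic replicates, and the leukemic values spanned the mature ones. The group means were 0.16 and 0.07 (exact two-sided permutation p = 1).

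Within an array, the signals of a pair of members can be set against each other without the scaling of whole arrays. The group difference of such a log ratio is the difference of the fold changes already given, so it is no separate evidence. S100a4 minus S100a8 was -8.92 and -8.44 log2 units for leukemic marrow against -2.72 and -3.78 for mature cells. S100a6 minus S100a8 was -4.08 and -4.50 against -1.16 and -1.51. S100a4 minus S100a6 was -4.84 and -3.94 against -1.56 and -2.27. In each of these 3 pairs both leukemic values lay below both mature values. Such separation was common, as 16 of all 21 pairs of tested members did not overlap between the groups. The share over pairs of other genes was not computed. Of all tested genes taken singly, 28.3% had both leukemic arrays below both mature arrays and 45.9% both above. Probe sets differ in affinity, so the ratios themselves have no absolute meaning. S100a8 lies at the top of the scale, and its use as a reference carries the same limit on saturation. The smallest p that 2 against 2 arrays allow in a two-sided exact permutation is 0.33, so none could pass.

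**Figure D3:**
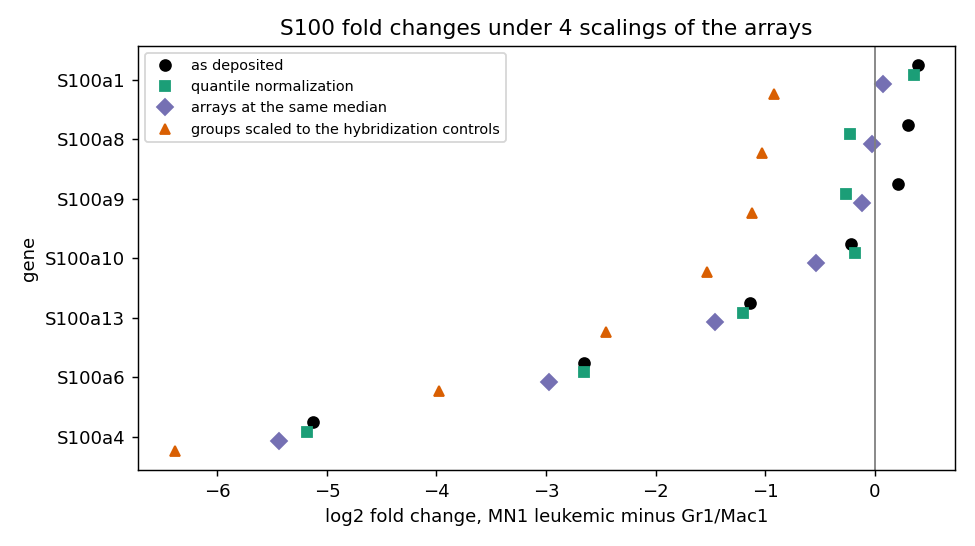
Log2 fold change (leukemic minus mature) of the 7 tested S100 genes with the arrays as deposited, after quantile normalization, at the same median and with the groups scaled to the hybridization controls. S100a4 lies between -6.39 and -5.13 in all 4, whereas S100a8 moves from 0.30 to -1.03 and S100a9 from 0.21 to -1.12.

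S100a10 was read by 3 probe sets that did not move alike. The brightest, which can match several transcripts (suffix _x_at), read 2383 and 1667 in leukemic and 3516 and 1523 in mature marrow. Its log2 fold change was -0.21 (SE 0.41, limma adjusted p = 0.71), which turned to 0.04 without leukemic replicate 2 and to 0.39 without mature replicate 1. The gene stood at -0.88 without probe sets that can match several transcripts (limma adjusted p = 0.336). As the mean of its probe sets it stood at -0.98 (adjusted p = 0.11). The second probe set read 849 and 615 against 2991 and 599, where mature replicate 1 stood apart from the other 3 arrays. In the test of all probe sets it gave -0.88 (SE 0.67, adjusted p = 0.349). Leaving out mature replicate 2 gave -2.03 (adjusted p = 0.00539), and leaving out mature replicate 1 gave 0.27 (0.512; range over alternatives 0.00539 to 0.644). The dimmest read 49.6 and 69.5 against 333 and 195, and fell, with -1.86 (SE 0.43, adjusted p = 0.0149). That call was lost without leukemic replicate 1 (adjusted p = 0.0857), leukemic replicate 2 (0.0566) or mature replicate 1 (0.0523; range over alternatives 0.00152 to 0.0857). Scaled to the hybridization controls, the gene passed as lower, at -1.53 (adjusted p = 0.0183; range over alternatives 0.0183 to 0.965).

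The shared probe set of S100a11, S100a11-ps and Gm12854 read 20437 and 8352 in leukemic and 41909 and 41913 in mature marrow. S100A11 binds annexin A1. The mature arrays were nearly equal, and both leukemic arrays lay below them, 1.29 log2 units apart. Its log2 fold change was -1.68 (SE 0.43, limma adjusted p = 0.0225 over 27022 probe sets), and the transcripts behind it cannot be told apart. The call was lost without leukemic replicate 2 (-1.04, adjusted p = 0.12), mature replicate 2 (0.0543) and with no filter on low signals (0.0541; range over alternatives 0.00131 to 0.12).

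S100a1, known best as a regulator of calcium handling in muscle, was read by 2 probe sets. The brighter one can match several transcripts (suffix _s_at). It read 1901 and 1709 in leukemic and 1473 and 1262 in mature marrow, with both leukemic values above both mature values. The difference of 0.40 on the log2 scale (SE 0.23, limma adjusted p = 0.208) did not pass. Groups scaled to the hybridization controls turned it to -0.92 (adjusted p = 0.0133; range over alternatives 0.0133 to 0.877). Of all tested genes, 45.9% had both leukemic arrays above both mature arrays and 28.3% both below. The dimmer probe set read 237 and 168 against 177 and 113, and overlapped (0.45, adjusted p = 0.413).

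By probe set, 4 of the 10 member probe sets fell and 0 rose (limma, also 4 and 0 at an unadjusted p under 0.05). With the shared S100a11 probe set 5 of 11 fell. Of all tested probe sets, 34.9% were called, 13.6% lower and 21.2% higher. Both leukemic arrays lay below both mature arrays in 4 of the 10 and above them in 1, against 28.6% and 41.4% of all probe sets. The count of 5 dropped to 3 without leukemic replicate 1 and to 2 without leukemic replicate 2.

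**Figure D4:**
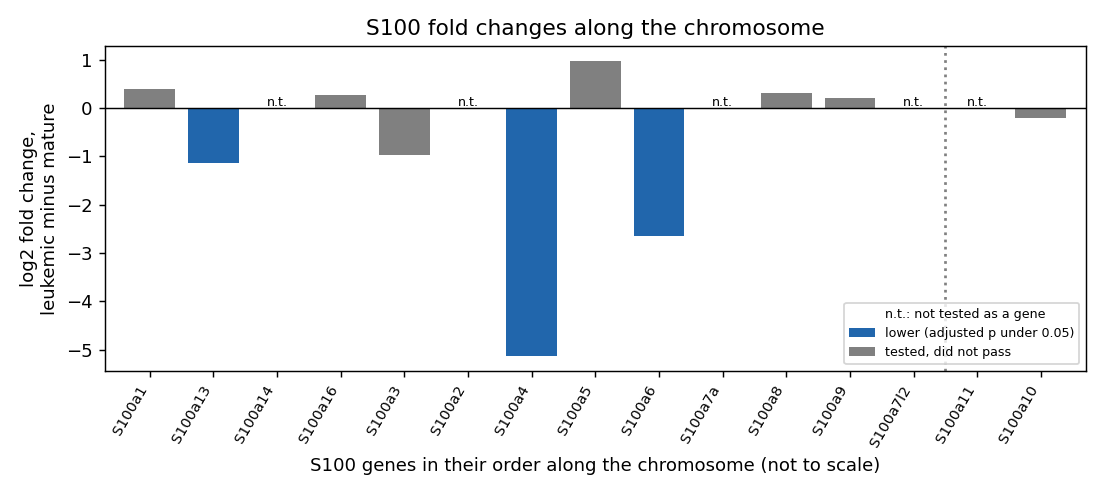
Log2 fold change (leukemic minus mature, vertical axis) of S100 genes in their order along chromosome 3, not to scale; the dotted line marks the gap before S100a11, and n.t. marks genes not tested. The bars of S100a4 (-5.13) and S100a6 (-2.65) flank S100a5 (0.98, did not pass) and lie close to S100a8 (0.30) and S100a9 (0.21).

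Along the chromosome the called genes S100a13, S100a4 and S100a6 alternate with genes that did not pass or were not tested. S100a13 is next to S100a1, which did not pass. S100a3, before S100a2 and S100a4, read 42.2 and 22.4 in leukemic and 67.9 and 88.0 in mature marrow, with both leukemic values below both mature values (-0.98, SE 0.52), and did not pass. S100a4 and S100a6 flank S100a5, an S100 gene outside the listed members that read 53.9 and 79.2 in leukemic and 2.86 and 75.2 in mature marrow (0.98, SE 0.80, did not pass). Its mature replicates lay far apart. S100a8 and S100a9 lie beyond S100a6, after S100a7a, which had no probe set naming it here.

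The myeloid and progenitor markers place these values in their samples. Of 13 tested neutrophil markers, 5 fell in leukemic marrow (Mmp8, Mmp9, Cxcr2, Csf3r and Itgam) and 0 rose (limma, also 5 and 0 at an unadjusted p under 0.05). The falls were 38.5% of these markers, next to 15.9% of all genes. Itgam encodes CD11b, an antigen on which the mature cells were selected, so its call is no separate evidence. The 8 that did not pass were Elane, Mpo, Prtn3, Ctsg, Camp, Ltf, Ngp and Lcn2, with log2 fold changes from -1.36 to 1.01. The summed signal of all 13 was 334197 and 165164 in leukemic and 371236 and 282152 in mature marrow. All 9 tested monocyte and macrophage markers fell, with sums of 9962 and 7431 against 61155 and 34326. Of 10 stem and progenitor markers 9 rose, with sums of 57721 and 64845 against 3564 and 5392. Of all tested genes, 15.9% fell and 27.5% rose. The mature mean lay below 47.6, the lowest mean signal that the filter kept, in 3 of the 9 rises (Mycn, Adgrg1 and Sox4). In Fcgr1, 1 of the monocyte falls, the leukemic mean did. These genes were tested through the signals of their brighter group. In bulk marrow, fewer cells of a type and less RNA per cell cannot be told apart. The part of granulocytes in the S100a8 and S100a9 signals, and of monocytes in those of S100a4, S100a6 and S100a13, was not tested. Probe sets for the 3′ and 5′ ends of beta-actin gave ratios of 3.28 and 3.09 for leukemic and 1.32 and 1.39 for mature RNA, and their part was not tested either.

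The leukemic replicates differed in some marker lists. The median neutrophil marker was 1.18 log2 units higher in leukemic replicate 1 than in replicate 2 and the median B and plasma cell marker 1.32. This median was 0.95 for T and NK cell, 0.78 for megakaryocyte and 0.31 for monocyte and macrophage markers. It was -0.13 for stem and progenitor, -0.43 for erythroid and -0.44 for mast cell and basophil markers, and -0.01 over all genes. The same difference was 0.86 for S100a9, 0.49 for S100a8 and 0.91 for S100a6, but 0.00 for S100a4 and -0.06 for S100a13. Of the 6 tested B and plasma cell markers, Ighm read 1655 and 1288 and Cd79b 513 and 193 in the leukemic arrays. Ms4a1, Pax5, Jchain and Igha had no leukemic signal above 63.6, so the median of that list rests partly on dim genes. In the mature arrays replicate 1 was above replicate 2 for all 7 tested members, by 0.63 at the median, and 52.1% of all genes were higher in replicate 1. The median monocyte and macrophage marker was 0.68 log2 units higher in mature replicate 1. The same median was 1.33 for B and plasma cell, 1.14 for mast cell and basophil, 0.42 for neutrophil and 0.40 for T and NK cell markers. For stem and progenitor, erythroid and megakaryocyte markers it was -0.06, -0.12 and -0.12, and over all genes 0.03.

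Known partners and receptors of S100 proteins were lower in leukemic marrow more often than higher. Of 26 listed genes 21 were tested, and 13 fell, 3 rose and 5 did not pass, with a median of -1.86 against 0.28 over all genes. In 4 of the 13 (Ager, Cd36, Mcam and Ryr1) the leukemic mean lay below 47.6, the lowest mean signal that the filter kept, so they were tested through their mature signals, and their fold changes depend on the pseudocount. The 3 rises came down to 1 with all arrays at the same median and to 0 with the groups scaled to the hybridization controls. The falls were 61.9% of the tested partners and the rises 14.3%, next to 15.9% and 27.5% of all genes.

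Among the receptors, Ager, which encodes RAGE, read 8.20 and 11.2 in leukemic and 669 and 389 in mature marrow. It was called lower (limma adjusted p = 0.000798), with a log2 fold change between -5.60 and -2.97 for pseudocounts of 1 and 64, and -2.08 without probe sets that can match several transcripts (adjusted p = 0.0391; range over alternatives 1.48e-05 to 0.0391). Tlr4, the lipopolysaccharide receptor that also responds to S100A8, fell by 2.43 on the log2 scale (SE 0.62, adjusted p = 0.0186). Its signals were 256 and 61.3 against 545 and 1069, and its value was -1.60 without mature replicate 2 and -1.52 without leukemic replicate 2. Cd36, a scavenger receptor, was dim in all arrays, at 119 and 126 in mature and 14.6 and 4.48 in leukemic marrow. It was called lower (adjusted p = 0.011), at -3.74 with a pseudocount of 1 and -1.35 with 64. Both calls were lost without leukemic replicate 2 (adjusted p = 0.0655 for Tlr4, range over alternatives 0.00132 to 0.0655, and 0.0605 for Cd36, range 0.00202 to 0.0605). Bsg, which encodes the S100A9-binding protein basigin, rose by 1.17 (SE 0.27, adjusted p = 0.0118) as deposited, but stood at -0.15 with the groups scaled to the hybridization controls. Its call was also lost with all arrays at the same median (adjusted p = 0.0983) and without leukemic replicate 2 (0.129; range over alternatives 0.00614 to 0.644).

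Intracellular partners differed in direction. Anxa2, the partner of S100A10, read 8073 and 3707 in leukemic and 38966 and 30685 in mature marrow. Its log2 fold change was -2.66 (SE 0.39, limma adjusted p = 0.00239), or -1.21 as the mean of its probe sets. Ahnak, which encodes a large scaffold bound by that complex, was at -3.46 (SE 0.45, adjusted p = 0.00164). Anxa1, the partner of S100A11, read 49129 and 23305 against 53870 and 43488 and did not pass (-0.52, adjusted p = 0.339). It did pass as lower after quantile normalization (-0.95, adjusted p = 0.0409), as the mean of its probe sets (-1.33, 0.0168) and with the groups scaled to the hybridization controls (-1.85, 0.0077; range over alternatives 0.0077 to 0.973). Cacybp, the S100A6-binding adaptor, rose by 2.15 (SE 0.32, adjusted p = 0.00246), a call lost with the groups scaled to the hybridization controls (0.83, adjusted p = 0.0632; range over alternatives 3.91e-05 to 0.0632). Ppp5c, a phosphatase that S100 proteins can activate, rose by 1.04 (adjusted p = 0.0226) but turned to -0.27 under that scaling. Its call was also lost after quantile normalization (adjusted p = 0.0573), at the same median (0.171), without probe sets that can match several transcripts (0.0837) and without leukemic replicate 1 (0.111) or 2 (0.148; range over alternatives 0.00953 to 0.431). Cybb, the NADPH oxidase subunit to which calprotectin delivers arachidonic acid, was at -2.79 (SE 0.37, adjusted p = 0.00172). Ryr1, the calcium release channel that S100A1 binds in muscle, read 412 and 159 in mature and 2.40 and 4.13 in leukemic marrow. It was called lower (adjusted p = 0.00287), at -5.95 with a pseudocount of 1 and -2.28 with 64. Anxa11 had no probe set naming it alone here.

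**Figure D5:**
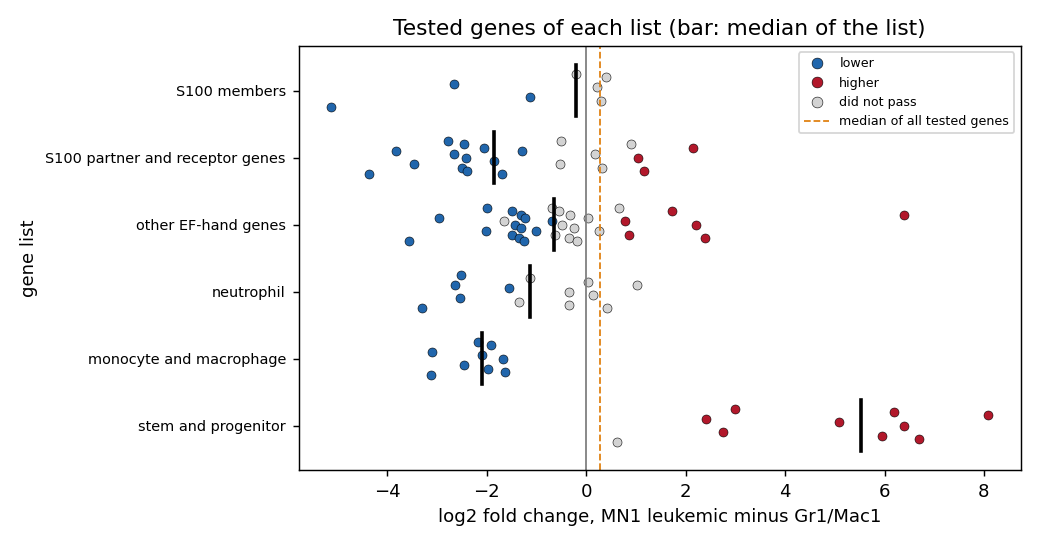
Log2 fold change (leukemic minus mature) of each tested gene of the S100 members, their partners and receptors, other EF-hand genes and 3 marker lists, with 1 point per gene, coloured by its call, and a bar at the list median. The medians are -0.21 for the S100 members, -1.86 for the partners and -0.65 for other EF-hand genes, against 0.28 over all genes (dashed line).

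Other EF-hand genes were called in both directions. Of 43 listed, 32 were tested, and 14 fell, 6 rose and 12 did not pass, with a median of -0.65. The falls were 43.8% of the tested genes and the rises 18.8%, next to 15.9% and 27.5% of all genes. The falls numbered 24 with the groups scaled to the hybridization controls and 7 without leukemic replicate 2. Gca, which encodes grancalcin of neutrophil granules, read 475 and 253 in leukemic and 2963 and 6282 in mature marrow (-3.58, SE 0.43, limma adjusted p = 0.00133). The actin crosslinker Actn1 (-2.96, adjusted p = 0.00175), Hpcal1 (-2.01, 0.00204) and the calpain Capn2 (adjusted p = 0.0146) also fell. Capn2 read 236 and 263 against 1778 and 615, and was at -1.25 without mature replicate 1. Calml4, a calmodulin-like gene, read 1437 and 1957 in leukemic and 3.71 and 4.90 in mature marrow, and was called higher (adjusted p = 0.000144). It was tested through its leukemic signals, since its mature mean lay below 47.6, and stood at 8.32 with a pseudocount of 1 and 4.67 with 64. Rcn3 (2.39, adjusted p = 0.00256) and Rcn2 (1.72, 0.00353), calcium-binding proteins of the secretory pathway, also rose. The neuronal calcium sensor Ncs1 read 78.6 and 152 in leukemic and 15.3 and 8.08 in mature marrow, and was called higher (adjusted p = 0.0212). It too was tested through its leukemic signals, and stood at 3.18 and 1.22 with the same pseudocounts. Rcn3 was at 1.22 with the groups scaled to the hybridization controls. The call of Rcn2 was lost there too (0.40, adjusted p = 0.255), and without probe sets that can match several transcripts (0.161; range over alternatives 0.000399 to 0.255). Ncs1 lost its call when leukemic replicate 1 was left out (adjusted p = 0.0509, with 0.011 to 0.0509 over all its alternatives).

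The genes nearest to each member in pattern were found as the smallest Euclidean distance between log2 values centred on each gene's mean over the 4 arrays. With 4 arrays many genes lie close, so this is a description. S100a4 had no close neighbour, with Klf4 (0.59), Fos (0.78) and Ager (0.89) the nearest. S100a6 lay nearest to Cyp4f18 (0.06), Acvrl1 (0.07) and the macrophage marker Cd68 (0.11), and S100a13 nearest to Arhgap26 (0.07), Tmem9b (0.08) and Sertad1 (0.09). S100a8 was nearest to Gimap8 (0.07), Cuedc1 (0.09) and Tmem214 (0.09), and S100a9 to Gimap4 (0.08), Nnmt (0.11) and the lysozyme gene Lyz1 (0.14). Of these, Gimap8, Cuedc1, Gimap4 and Nnmt were dim, with no signal above 113 in any array. S100a1 was nearest to Srr (0.04), Fam98c (0.04) and Gins4 (0.05), and S100a10 to Myo1h (0.02), Mef2b (0.12) and Pimreg (0.19).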

How the data were processed

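Each of the 4 samples was 1 single-colour array of biotin-labelled total RNA, extracted with Trizol and assessed on a Bioanalyzer (labels' protocols). The authors deposited linear MAS5 intensities, with GCOS 1.3.0 named in the submitters' processing notes. The sources used here do not give scale target, settings or detection calls. Trimmed by 2% at each end, the mean signal was 500.003 or 500.004 in every array, so the arrays had been scaled to 1 target. Signals were taken as log2(signal + 16). Probe sets in the lowest 40% by mean signal were left out, which kept 27022 of 45037 that are no controls, down to a mean signal of 47.6. Each gene was read from its brightest probe set, and probe sets with several symbols named none. The group test was limma's, version 3.58.1 under R 4.3.3 (lmFit, eBayes with a variance trend, two-sided, Benjamini-Hochberg over all features), with 6.90 degrees of freedom after moderation. Each probe set was tested in the same way. The number of arrays limits the precision, and the script was tested on simulated data. There, of 200 genes changed by 4 log2 units among 12378, 69.5% were called, and of those changed by 2 or 1, 0% were called. The median estimates were 4.02, 2.08 and 0.97. In the real comparison 43.4% of genes were called, so this recovery does not describe its sensitivity.

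Members and gene lists were chosen with earlier results of these data known. The named genes were all S100 genes on the array, in the partner and EF-hand lists up to 4 called genes in each direction with the largest fold change, Ager, Tlr4, Cd36, Anxa1, Anxa2, Anxa11 and Cybb whatever they showed, and the 3 genes nearest in pattern to each member (unnamed transcripts passed over). Of these, Anxa11 is read by no single-gene probe set here. The design text calls the arrays biological replicates. Alternatives were pseudocounts of 1 and 64, no filter or the lowest 60% left out, 3 other scalings, the mean of probe sets, no multi-transcript probe sets, other variance models, a replicate block and each array left out. Protein comparisons were not run. The plots used matplotlib 3.10.9 (Python 3.11.15).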

Additional observations from a re-analysis of the deposited data

How the results depend on the processing

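No S100 gene was called higher in any of the 16 alternatives, and S100a4 and S100a6 were called lower in every alternative that tested them. S100a10 passed as lower only with the groups scaled to the hybridization controls (-1.53). The count of lower S100 genes was 2 or 3 in all but 1 alternative and 2 to 3 with an array left out. With the groups scaled to the hybridization controls it was 7, and 10 S100 probe sets, 24 EF-hand genes, 10 neutrophil markers and 6104 of all genes were lower. Under that scaling 0 partner genes, 2 EF-hand genes and 1029 of all genes were higher. S100a1 was at -0.92 (its dimmer probe set -0.76), S100a8 at -1.03, S100a9 at -1.12, Bsg at -0.15 and Ppp5c at -0.27. With all arrays at the same median, 1 partner gene and 2250 of all genes were higher, S100a8 was at -0.021 and S100a9 at -0.11. After quantile normalization they were at -0.23 and -0.26, and S100a6 to S100a8 shifted by -2.43 between the groups, against -2.95 as deposited. Without probe sets that can match several transcripts, 1 partner gene was higher, and S100a6 and S100a8 were not tested.

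With each array left out in turn, the fit let the remaining lone array take its spread from the other group. The lower S100 probe sets then numbered 2 to 5, higher partner genes 1 to 3, lower EF-hand genes 7 to 14, higher EF-hand genes 3 to 6, lower genes overall 1129 to 1890 and higher genes overall 1683 to 3622. Log2 fold changes ranged from -0.22 to 0.64 for S100a9, from -0.81 to 0.39 for S100a10 and from -1.05 to 0.021 for Anxa1. The second S100a10 probe set ranged from -2.03 to 0.27, and S100a9 to S100a8 from -0.27 to 0.092.

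Replicate numbers 1 and 2 recur in both groups without a stated pairing (correlation of deviations -0.03). With a replicate block, 3 S100 genes, 5 S100 probe sets and 2054 of all genes were lower, and 1 neutrophil marker was higher.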

Other observations

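Of the S100 genes on the array outside the 8 members, 7 had 9 probe sets, and 3 of these passed the filter on low signals. None of the 3 was called (limma, also 0 at an unadjusted p under 0.05). S100a3 read 42.2 and 22.4 in leukemic and 67.9 and 88.0 in mature marrow, with a log2 fold change of -0.98 (adjusted p = 0.186 over probe sets). S100a16 read 187 and 147 against 75.4 and 234, so that the mature arrays spanned the leukemic ones. Below the filter, S100a14 read 8.51 and 4.72 in leukemic and 42.4 and 50.8 in mature marrow, and the brighter probe set of S100b 19.3 and 58.2 against 24.9 and 26.0. S100g and S100a7l2 were near the bottom of the scale, with no signal above 28.3.

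Of the other marker lists, 4 of 5 tested mast cell and basophil genes rose, with summed signals of 44696 and 58412 in leukemic and 491 and 295 in mature marrow. Of 5 tested erythroid genes 4 rose, with sums of 22228 and 35837 against 8655 and 4305. B and plasma cell genes fell in 3 of 6 cases, with sums of 2362 and 1576 against 21611 and 7205. Among the mast cell and basophil rises, Cpa3 and Fcer1a had a mature mean below 47.6, the lowest mean signal that the filter kept. Jchain and Igha, among the B and plasma cell falls, had a leukemic mean below it. These genes were tested through the signals of their brighter group. Of 5 tested megakaryocyte genes 1 rose, and of 3 tested T and NK cell genes 0 were called (limma, also 0 at an unadjusted p under 0.05). The shares over all tested genes were 27.5% higher and 15.9% lower.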
